A study of Mus musculus with 16 samples.

Results

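The genes described here are 10 nuclear genes that regulate how many mitochondria a cell builds: the coactivators Ppargc1a and Ppargc1b, the nuclear receptors Esrra, Esrrg, Ppara and Ppard, the transcription factors Nrf1 and Gabpa, and Tfam and Polg, which act on mitochondrial DNA itself. They were picked by gene symbol, with no threshold on any measured value. The count table lists 11710 genes, all 10 regulators are among them, and all 10 passed the filter on low counts that kept 11709 genes for testing. Total RNA of mouse rotator cuff muscle was sequenced in 16 samples, 4 in each of 4 groups. One strain was C57BL/6J, called BL6 here, a common inbred reference strain, and the other was MRL/MpJ, called MRL, an inbred strain known for unusual wound healing. In each strain 1 group had not been operated on, and the other had undergone tenectomy, which removes the tendon, together with denervation, which cuts the nerve supply of the same muscle. The unoperated groups had no sham surgery in the labels, so unloading, nerve loss and the operation itself cannot be told apart. The series text names the infraspinatus and the sample labels the supraspinatus. Age, sex and time after surgery were not given in the sources used here. Nothing in the labels says that the samples of a group came from separate animals, so p-values measure only the spread between these samples.

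Mitochondrial biogenesis needs proteins from nuclear and mitochondrial genomes to be made together. Peroxisome proliferator-activated receptor gamma coactivators (encoded by Ppargc1a and Ppargc1b) bind no DNA sequence of their own. They dock on transcription factors such as the estrogen-related receptors (Esrra, Esrrg) and the fatty acid sensing receptors PPAR-alpha and PPAR-delta (Ppara, Ppard), and they enhance the activity of nuclear respiratory factor NRF-1 (Nrf1) and the ETS-family factor GABP, also known as NRF-2, whose DNA-binding subunit is Gabpa. These factors drive genes of the respiratory chain and fatty acid oxidation, and NRF-1 and GABP also act on the Tfam promoter. Tfam packages mitochondrial DNA and starts its transcription, and Polg is the catalytic subunit of the polymerase that copies it. In skeletal muscle this circuit is known to be engaged by endurance exercise and calcium signalling, and its coactivator is more abundant in slow, oxidative fibres than in fast ones.

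Because several members are regarded as targets of other members, their promoters were searched for the binding letters of those factors. RefSeq promoter windows of 300 bases (250 before and 50 after each start, build GRCm38.p6) matched 9 of the 10 genes, in 13 windows, and Ppargc1b was not matched. Both strands were searched. The GABP motif CCGGAAG was found in the windows of Gabpa, Tfam and Polg, and 8.86% of all 32851 promoter windows in the table hold it. The NRF-1 core CGCATGCG, which reads the same on both strands, was found in the Ppara and Gabpa windows, and 1.87% of all windows hold it. The estrogen-related receptor half-site AAGGTCA (4.72% of all windows) and the cAMP response element TGACGTCA (1.79%) were found in none of the 13. These motifs do not overlap each other in the windows below. The matches are shown with 10 bases on each side, 5′ to 3′ on the strand of the gene, with the motif in capitals (in Gabpa the GABP motif lies on the opposite strand). All matches found in the windows are shown. Of the genes with a match, Gabpa, Tfam and Ppara were called lower after surgery in both strains and Polg in neither. Ppard, whose windows held none of these motifs, was also called lower in both strains. A link between the letters and the falls was not tested.
Gabpa (GABP motif): agggtaagtgCTTCCGGgtccctcagc
Tfam (GABP motif): ctgccgcggaCCGGAAGtccgggcttc
Polg (GABP motif): aggacctcacCCGGAAGtccctctgca
Ppara (NRF-1 core): ggctcggtggCGCATGCGcgcggactag
Gabpa (NRF-1 core): ctgcactgtaCGCATGCGtattctggcc
The GABP match in Gabpa starts 93 bases before its RefSeq start, within chr16:84835021-84835047, where GENCODE M21 annotates 5′ untranslated exon of another Gabpa transcript and an exon of Atp5j on the opposite strand. The Tfam match starts 47 bases before the start, within chr10:71238075-71238101 on the minus strand, and the Polg match 38 bases before, within chr7:79466295-79466321 on the minus strand, both inside untranslated first exons of the same genes in GENCODE, whose starts lie further upstream. The NRF-1 core starts 30 bases before the start of Ppara, within chr15:85735736-85735763 and outside any annotated exon, and 8 bases before that of Gabpa, within chr16:84835106-84835133, a stretch that runs into the first exon of the RefSeq form and overlaps an Atp5j exon. A match of letters is a description and was not tested as a binding site.

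Total counts ran from 24323862 to 43552964 per sample, and 3 counts, the level that a count of 0 allows, corresponded to 0.0718 to 0.122 CPM (the count of a gene scaled to 1000000 counts of its sample). The lowest member count in any sample was 29, for Ppara, so every member was measured above that floor in all 16 samples. Intervals and floors of this kind cover counting error only. The summed level of 8 muscle fibre markers was between 50600 and 145000 CPM in every sample, so the libraries carry the labelled tissue. In both strains 7 of 7 measured adipocyte markers rose after surgery, their summed level going from between 251 and 335 CPM to between 1360 and 2350 in BL6 and from between 294 and 417 to between 1470 and 2040 in MRL. The summed level of the muscle fibre markers was 105000 to 145000 CPM in unoperated and 50600 to 117000 in operated BL6, and 95800 to 109000 and 64400 to 82100 in MRL. Of these 8 markers, 3 were called lower in BL6 and 2 in MRL. These shares, 37.5% and 25.0%, stand beside 32.8% and 22.7% of all genes. Of the markers of other cells, 4 of 4 for brown or beige adipocytes, 5 of 8 for leukocytes, 5 of 8 for fibroblasts and 6 of 6 for Schwann cells were called higher after surgery in BL6, and 3, 1, 0 and 5 in MRL, where 35.1% and 22.3% of all genes were. The BL6 counts without operated BL6 sample 4 were 3, 4, 3 and 6, and the MRL counts without operated MRL sample 4 were 2, 0, 0 and 5, with 6 of 7 adipocyte markers higher. In those fits 31.8% and 24.6% of all genes were called higher. The 4 brown or beige genes tested were Ucp1, Cidea, Cox8b and Cox7a1. They already summed to 1040 to 1260 CPM in unoperated BL6, above the adipocyte markers, so their count alone does not show brown or beige fat. Of the 2 measured satellite cell markers, 1 was higher and 1 lower in BL6, and 1 was higher in MRL.

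Libraries stood apart within their groups, and results that rest on them are given with and without them. Operated MRL sample 4 had 11.8% of its counts on mitochondrial genes, against 20.1 to 24.9% in the other operated MRL samples and 10.97 to 11.63% in unoperated MRL. Its score on the first principal component, which separates operated from unoperated samples and carries 51.8% of the variance, was 13.35, against 25.9 to 54.8 for the others of its group. This sample was also the highest of its group for 9 of the 10 regulators. Unoperated MRL sample 1 scored -7.49 against -44.9 to -38.7 for the others of its group and was the lowest of its group for 9 of the 10 regulators. Operated BL6 sample 4 carried fibroblast markers at 8250 CPM in sum, against 1170 to 2140 in the other operated BL6 samples, and was the lowest of its group for 6 of the 10 regulators.

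After surgery every regulator that passed the test was lower, in both strains. In BL6, 6 of the 10 fell: Ppargc1b, Esrra, Ppara, Ppard, Gabpa and Tfam. Their share stands beside a large background, since 32.8% of all genes tested were lower and 35.1% higher after surgery in BL6, 67.9% in either direction. The median log2 fold change over the 10 was -0.73, against 0.04 over all genes tested. In MRL, 5 of the 10 fell, Ppargc1b, Ppara, Ppard, Gabpa and Tfam, where 22.7% of all genes were lower and 22.3% higher, 45.0% in either direction. There the median log2 fold change over the 10 was -0.51, against 0.01 over all genes. In bulk tissue, fewer cells of a type and less RNA per cell cannot be told apart, and the part of the adipocyte and muscle fibre levels given above in these falls was not tested. All tests are edgeR's quasi-likelihood test, with p-values adjusted by Benjamini-Hochberg over all genes tested and a gene called at an adjusted p under 0.05.

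**Figure D1:**
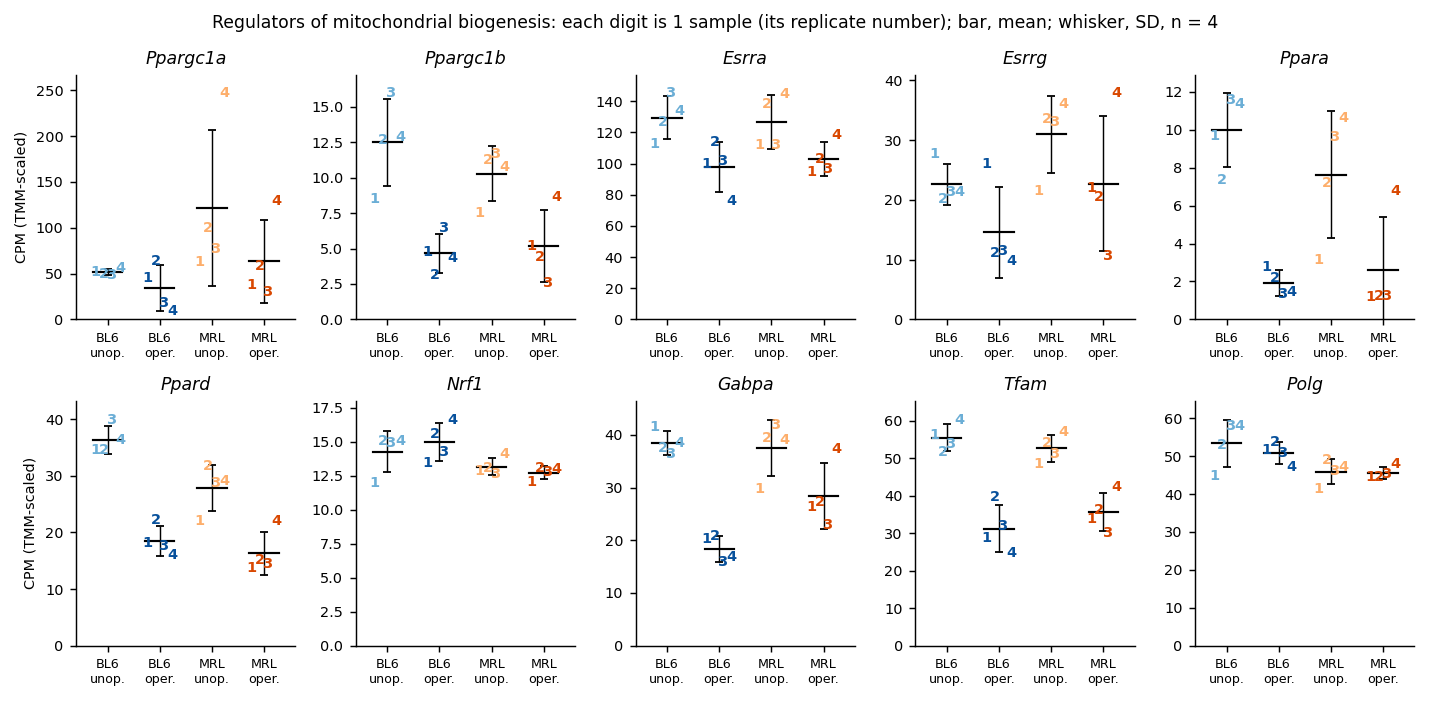
Level of each of the 10 regulators in CPM (y axis from 0, TMM-scaled) in the 4 groups (x axis); each digit is 1 sample and gives its replicate number, bars are group means and whiskers SD (n = 4, cut at 0 for Ppara in operated MRL). Ppard, Gabpa and Tfam separate unoperated from operated BL6 without overlap, the 16 values of Nrf1 lie between 11.99 and 16.61 CPM, and the digit 4 tops operated MRL in 9 of the 10 panels.

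Ppargc1a, the inducible coactivator of the pair (ENSMUSG00000029167, chromosome 5:51454250-51567726, minus strand, GRCm38), had a narrow spread in unoperated BL6 and a wide one in the other groups. It stood at 51.9, 49.8, 48.5 and 56.0 CPM in unoperated BL6 and at 45.5, 63.7, 17.5 and 9.21 CPM in operated BL6. The operated samples lay on both sides of the unoperated ones, which were close together (51.5 ± 3.30 against 34.0 ± 25.2 CPM, mean ± SD, n = 4). In MRL it stood at 63.1, 99.6, 76.7 and 246.6 CPM unoperated and at 37.0, 57.9, 30.1 and 129.2 CPM operated. In both MRL groups the sample numbered 4 was far above the rest, and the groups overlapped. Neither surgery effect passed the test, with log2 fold changes of -0.60 ± 0.563 (SE, adjusted p = 0.352) in BL6 and -0.93 ± 0.562 (adjusted p = 0.181) in MRL. The MRL effect was -1.54 with an adjusted p of 0.0327 when operated MRL sample 4 was left out, and -0.32 with an adjusted p of 0.651 when unoperated MRL sample 4 was. In BL6 it ran from -1.10, without operated sample 2, to -0.29, without operated sample 4, and was never called.

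Ppargc1b, the second coactivator (ENSMUSG00000033871, chromosome 18:61298136-61400431, minus strand), fell in both strains. It stood at 8.50, 12.7, 15.96 and 12.9 CPM in unoperated BL6 and at 4.76, 3.14, 6.44 and 4.32 CPM in operated BL6. Every operated BL6 sample was below every unoperated one. The fall was 2.68-fold (log2 fold change -1.42 ± 0.308, adjusted p = 0.000936). In MRL it stood at 7.49, 11.2, 11.7 and 10.8 CPM unoperated and at 5.16, 4.41, 2.59 and 8.66 CPM operated, where only operated sample 4 was above the lowest unoperated sample. The MRL fall was 1.97-fold (-0.98 ± 0.304, adjusted p = 0.0179), and it missed the threshold without operated MRL sample 3 (adjusted p = 0.0541).

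Of the estrogen-related receptors, Esrra is the widely expressed form that sits on respiratory chain gene promoters (ENSMUSG00000024955, chromosome 19:6910977-6921813, minus strand). It had 113, 127, 145 and 134 CPM in unoperated BL6 and 99.9, 114, 101 and 76.1 CPM in operated BL6, with a slight overlap between operated sample 2 and unoperated sample 1. The fall in BL6 was 1.32-fold (-0.40 ± 0.136, adjusted p = 0.0161), and without unoperated BL6 sample 3 it missed the threshold (adjusted p = 0.0534). In MRL the levels were 112, 138, 112 and 144 CPM unoperated and 94.5, 103, 96.3 and 118 CPM operated, overlapping through operated sample 4. The MRL log2 fold change of -0.30 ± 0.136 was not called (adjusted p = 0.0841). Without operated MRL sample 4 it was -0.37 with an adjusted p of 0.0348.

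Esrrg, the form enriched in oxidative muscle and heart (ENSMUSG00000026610, chromosome 1:187608791-188214885, plus strand), passed in neither strain. In BL6 it went from 27.6, 20.1, 21.3 and 21.3 CPM to 26.0, 11.1, 11.5 and 9.70 CPM. Sample 1 was the highest in both BL6 groups, and the other operated samples were below all unoperated ones. The BL6 log2 fold change was -0.64 ± 0.340 (adjusted p = 0.106), and without operated BL6 sample 1 it was -1.07 with an adjusted p of 0.0076. In MRL the levels were 21.5, 33.4, 33.0 and 35.97 CPM unoperated and 21.9, 20.5, 10.6 and 37.8 CPM operated, with operated sample 4 the highest of all 8. The MRL log2 fold change was -0.44 ± 0.336 (adjusted p = 0.283), and without that sample it was -0.81 with an adjusted p of 0.0451. Without operated MRL sample 3 it was -0.21 with an adjusted p of 0.619.

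Ppara, the receptor that senses fatty acids and switches on their oxidation (ENSMUSG00000022383, chromosome 15:85734983-85802819, plus strand), showed the largest fold change of the 10 after surgery in both strains. It stood at 9.67, 7.37, 11.6 and 11.3 CPM in unoperated BL6 and at 2.75, 2.21, 1.32 and 1.42 CPM in operated BL6. The groups were well apart, and the fall was 5.21-fold (-2.38 ± 0.536, adjusted p = 0.00124). Of all genes tested in BL6, 0.521% had a fold change at or below this one. In MRL it stood at 3.12, 7.18, 9.61 and 10.6 CPM unoperated and at 1.18, 1.25, 1.24 and 6.77 CPM operated. The first 3 operated samples were below every unoperated one, and sample 4 was within the unoperated range. The MRL fall was 2.87-fold (-1.52 ± 0.516, adjusted p = 0.0266). Leaving out single samples moved the MRL value between -2.64 and -1.29 and its adjusted p between 0.000112, without operated sample 4, and 0.0824, and it missed the threshold in 5 of these 8 fits.

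Ppard, the PPAR that is more abundant in muscle (ENSMUSG00000002250, chromosome 17:28232700-28301474, plus strand), fell in both strains. Unoperated BL6 had 34.6, 34.5, 39.9 and 36.3 CPM and operated BL6 18.1, 22.2, 17.5 and 15.98 CPM, with no overlap. The fall was 1.97-fold (-0.98 ± 0.153, adjusted p = 8.67e-05). Unoperated MRL had 22.0, 31.7, 28.7 and 29.0 CPM and operated MRL 13.7, 15.2, 14.4 and 22.0 CPM, where operated sample 4 matched unoperated sample 1 at 22.01 CPM. The MRL fall was 1.70-fold (-0.77 ± 0.153, adjusted p = 0.00214). With each sample left out in turn and in every other fit tried, Ppard remained called in both strains.

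Nrf1 and Gabpa, which are often named together as the nuclear respiratory factors, did not move together. Nrf1 (ENSMUSG00000058440, chromosome 6:30047988-30153458, plus strand) stood at 11.99, 15.1, 14.9 and 15.1 CPM in unoperated BL6 and at 13.4, 15.6, 14.3 and 16.6 CPM in operated BL6. It stood at 12.8, 13.1, 12.6 and 14.1 CPM in unoperated MRL and at 12.02, 13.0, 12.8 and 13.0 CPM in operated MRL. Its 16 values lay between 11.99 and 16.61 CPM, and operated and unoperated samples overlapped in both strains. The log2 fold changes were 0.07 ± 0.0967 (adjusted p = 0.526) in BL6 and -0.05 (adjusted p = 0.684) in MRL.

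Gabpa (ENSMUSG00000008976, chromosome 16:84834925-84863779, plus strand) stood at 41.6, 37.5, 36.4 and 38.4 CPM in unoperated BL6 and at 20.3, 20.8, 15.8 and 16.8 CPM in operated BL6. The groups were far apart, and the fall was 2.09-fold (-1.06 ± 0.147, adjusted p = 3.84e-05), the smallest p of the 10 in BL6. In MRL it stood at 29.7, 39.4, 42.0 and 39.0 CPM unoperated and at 26.3, 27.2, 22.9 and 37.3 CPM operated. Operated sample 4 was in the unoperated range, and the other 3 were below it. The MRL fall was 1.32-fold (-0.40 ± 0.145, adjusted p = 0.0356). With 1 sample left out the MRL value lay between -0.56 and -0.31 and its adjusted p between 0.00193 and 0.119, and it missed the threshold in 6 of these 8 fits. Of the Gabpa exon bases, 6.98% are shared with Atp5j on the opposite strand, and the use of strand in the counting is not given in the sources used here. For Esrra the shared part was 3.74%, for Polg 8.57%, and for the other 7 genes 0.

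Tfam, the packaging and transcription factor of mitochondrial DNA (ENSMUSG00000003923, chromosome 10:71225464-71238280, minus strand), fell in both strains. It stood at 56.3, 51.8, 53.9 and 60.4 CPM in unoperated BL6 and at 28.8, 39.6, 32.0 and 24.7 CPM in operated BL6. The fall was 1.78-fold (-0.83 ± 0.132, adjusted p = 9.87e-05). In MRL it stood at 48.6, 54.2, 51.2 and 57.0 CPM unoperated and at 33.9, 36.2, 30.1 and 42.3 CPM operated, a 1.48-fold fall (-0.56 ± 0.132, adjusted p = 0.00458). In both strains every operated sample, operated MRL sample 4 included, was below every unoperated one. In BL6 Ppargc1b, Ppara, Ppard, Gabpa and Tfam, 5 of the 10 regulators, were lower without overlap, as were 29.2% of all genes. In MRL these were 2, Tfam and, touching at 22.01 CPM, Ppard, beside 16.7% of all genes.

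Polg, the mitochondrial DNA polymerase (ENSMUSG00000039176, chromosome 7:79446231-79466362, minus strand), stood at 44.7, 52.9, 57.9 and 58.0 CPM in unoperated BL6 and at 51.6, 53.8, 50.8 and 47.1 CPM in operated BL6. In MRL it stood at 41.5, 49.0, 46.1 and 47.2 CPM unoperated and at 44.5, 44.5, 45.4 and 47.9 CPM operated. In both strains all operated values lay inside the unoperated range. The log2 fold changes were -0.07 (adjusted p = 0.507) in BL6 and -0.01 (adjusted p = 0.922) in MRL. Scaling by total counts alone, without TMM, turned both signs, to 0.07 and 0.04, and that scaling moves the median of all genes in BL6 by 0.136.

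**Figure D2:**
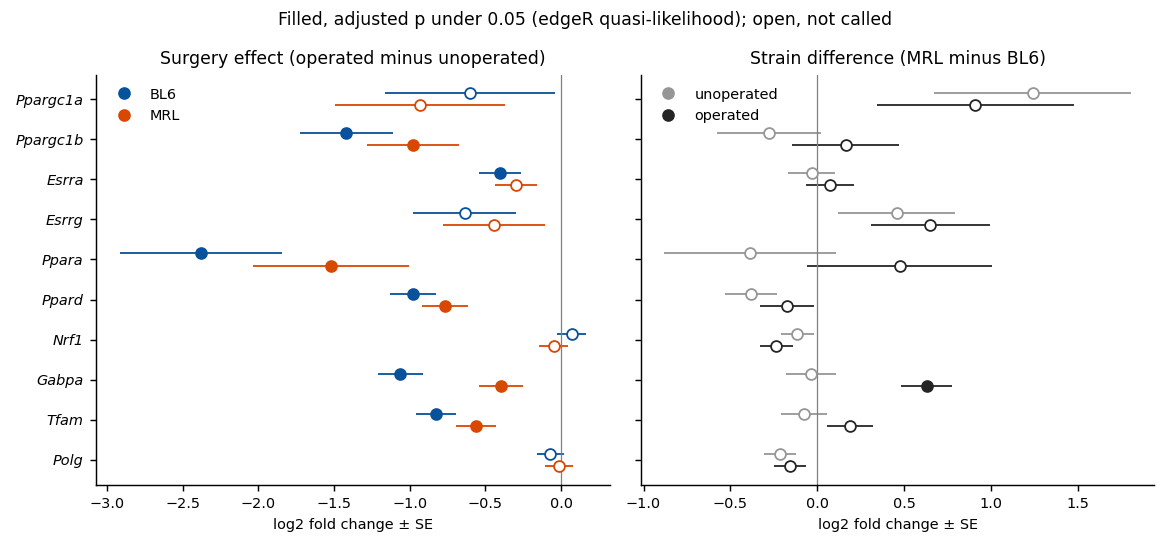
Log2 fold change with SE of each regulator after surgery in BL6 and MRL (left) and between the strains in unoperated and operated samples (right); filled points passed an adjusted p under 0.05. In BL6, 6 of the 10 surgery effects are filled and lie left of 0, in MRL 5, and on the right only Gabpa in operated samples is filled.

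Whether surgery acted differently in the strains was tested as an interaction, the MRL effect minus the BL6 effect. None of the 10 regulators passed, where 0.248% of all genes did (0.154% higher and 0.0939% lower, 29 genes in all, and 1843 at an unadjusted p under 0.05). Gabpa came nearest, with a difference of 0.66 ± 0.206 on the log2 scale, a raw p of 0.00547 and an adjusted p of 0.179. For Ppara the estimate was 0.86 with an adjusted p of 0.548, and without operated MRL sample 4 its sign turned, to -0.25. For Ppargc1b it was 0.44 (adjusted p = 0.600), for Tfam 0.27 (adjusted p = 0.472), for Ppard 0.21 (adjusted p = 0.623) and for Esrra 0.11 (adjusted p = 0.789). It was -0.33 for Ppargc1a (adjusted p = 0.846), 0.19 for Esrrg (adjusted p = 0.850), -0.12 for Nrf1 (adjusted p = 0.656) and 0.06 for Polg (adjusted p = 0.832). DESeq2 and limma-voom also called 0 of the 10. Without unoperated MRL sample 1 and operated MRL sample 4 the estimates for Ppargc1b, Esrra, Esrrg, Ppara, Ppard and Polg turned negative, and all genes called for the interaction went from 1 to 69 as single samples were left out. Esrra, called in BL6 and not in MRL, is therefore not shown to differ between the strains.

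The strains were then compared directly. Among unoperated samples none of the 10 was called by edgeR, DESeq2 or limma-voom. In the edgeR fit 10.4% of all genes were called (5.02% higher and 5.36% lower in MRL, 588 and 628 genes, or 742 and 313 when scaled by total counts alone). At an unadjusted p under 0.05 in that fit there were 3 of the 10, and 2848 of the 11709 genes tested. Ppargc1a was 2.36-fold higher in MRL on average (1.24 ± 0.566 on the log2 scale, adjusted p = 0.193), and every unoperated MRL sample was above every unoperated BL6 sample. This estimate depended on unoperated MRL sample 4, without which it was 0.63, and a fit to the unoperated groups alone gave an adjusted p of 0.0407. Ppard showed the opposite order without overlap, with 27.9 ± 4.14 CPM in MRL and 36.35 ± 2.53 CPM in BL6 (-0.38 ± 0.151, adjusted p = 0.128, and 0.0339 in the fit to those groups alone). Of the 10, 1 was thus above and 1 below without overlap in unoperated MRL, beside 12.2% and 12.9% of all genes. Polg was at 45.9 ± 3.21 CPM in MRL and 53.4 ± 6.26 CPM in BL6 (-0.22 ± 0.0920, adjusted p = 0.158). The log2 differences of the other 7 ran from -0.39 for Ppara to 0.46 for Esrrg, with -0.28 for Ppargc1b, -0.11 for Nrf1, -0.08 for Tfam, -0.04 for Gabpa and -0.03 for Esrra, and their adjusted p from 0.441 to 0.915.

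Among operated samples Gabpa was the 1 regulator of 10 called, where 12.9% of all genes were (7.60% higher and 5.27% lower in MRL, 890 and 617 genes, or 994 and 383 when scaled by total counts alone). It was 1.55-fold higher in MRL, at 28.4 ± 6.21 against 18.4 ± 2.48 CPM (0.63 ± 0.147, adjusted p = 0.00962), with every operated MRL sample above every operated BL6 sample. In a fit to the operated groups alone its adjusted p was 0.0661. Nrf1 was lower in MRL without overlap, at 12.7 ± 0.471 against 14.96 ± 1.42 CPM, a difference of -0.24 ± 0.0972 that was not called (adjusted p = 0.130). In operated MRL 1 of the 10 was thus above and 1 below without overlap, beside 7.41% and 6.16% of all genes. Ppargc1a was at 63.5 ± 45.3 against 34.0 ± 25.2 CPM, with an adjusted p of 0.330, and Esrrg at 22.7 ± 11.2 against 14.55 ± 7.64 CPM, with an adjusted p of 0.240. Ppard differed by -0.17 (adjusted p = 0.503), and by -0.36 without unoperated MRL sample 1 and operated MRL sample 4 (adjusted p = 0.0425). For Tfam the difference was 0.19 (adjusted p = 0.391) and for Polg -0.16 (adjusted p = 0.297). It was 0.47 for Ppara, 0.16 for Ppargc1b and 0.07 for Esrra, with adjusted p from 0.613 to 0.773.

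**Figure D3:**
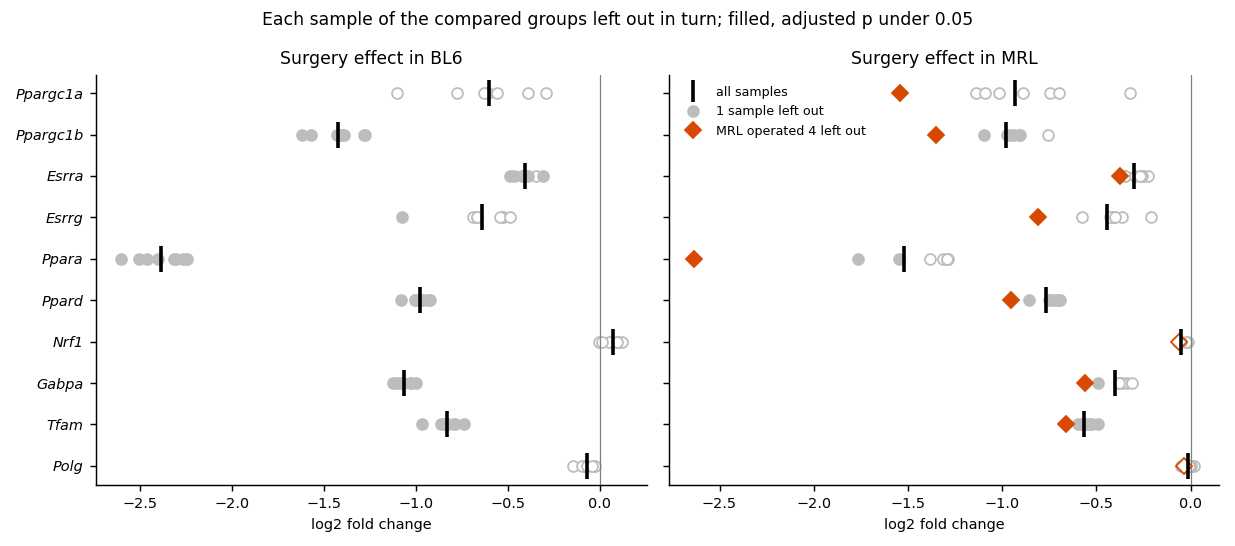
Log2 fold change after surgery (x axis) of each regulator in BL6 (left) and MRL (right) with all samples (black bar) and with each sample of the compared groups left out in turn (points, filled where the adjusted p was under 0.05). Leaving out operated MRL sample 4 (orange diamonds) moved Ppara from -1.52 to -2.64. It also brought Ppargc1a, Esrra and Esrrg past the threshold. In that fit 8 of the 10 regulators were called lower in MRL, beside 27.8% of all genes.

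Without operated MRL sample 4, Ppargc1a, Esrra and Esrrg joined the regulators called lower in MRL, 8 of 10 in all, while 52.5% of all genes were called in that fit, 27.8% lower and 24.6% higher. Without operated MRL sample 3 only Ppard and Tfam, 2 of 10, were called. In that fit 3490 of all genes were called, 1750 lower and 1740 higher, against 5272 with all samples. Regulators called were 3 without unoperated MRL sample 3 or 4 or operated MRL sample 1 or 2. Over all fits with 1 sample left out, all genes called in MRL ran from 3490 to 6145. Ppard and Tfam were also the only regulators called in MRL in every fit tried. In BL6, Ppargc1b, Ppara, Ppard, Gabpa and Tfam were called in every fit tried.

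Ratios between related regulators within a sample do not depend on how samples are scaled to each other, and 4 were compared in 20 tests. They are ratios of counts, not corrected for exon length, so only their differences between groups are read, not which gene is higher. The ratio of Ppard to Ppara counts was 3.69 in unoperated and 9.97 in operated BL6, log2 ratios of 1.88 ± 0.238 and 3.32 ± 0.430 without overlap (two-sided exact permutation test, p = 0.0286, adjusted 0.143). In MRL the log2 ratios were 1.998 ± 0.626 and 3.10 ± 0.929 (exact p = 0.0857), with operated sample 4 at 1.702 and the others from 3.532 to 3.602. The shift toward Ppard in BL6 was 1.43 on the log2 scale, and in MRL it was 1.10.

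The Gabpa to Nrf1 log2 ratio was 1.44 ± 0.239 in unoperated and 0.30 ± 0.261 in operated BL6, and 1.502 ± 0.220 and 1.14 ± 0.285 in MRL. Its drop of 1.14 in BL6 separated all samples (exact p = 0.0286, adjusted 0.143), and operated MRL exceeded operated BL6 by 0.84 without overlap (exact p = 0.0286, adjusted 0.143). The drop was smaller in MRL by 0.78 (two-sided exact permutation within each surgery arm, p = 0.0441, adjusted 0.176). The Ppargc1a to Ppargc1b count ratio was 4.22 in unoperated BL6 and 10.3 in unoperated MRL, a log2 difference of 1.29 with no overlap (exact p = 0.0286, adjusted 0.143). The Esrrg to Esrra log2 ratio was -2.52 in unoperated BL6 and -2.05 in unoperated MRL (exact p = 0.0857, adjusted 0.214). With 4 samples against 4 the exact test cannot go below 0.0286, and none of the 20 ratio tests passed after adjustment, the lowest being 0.143.

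**Figure D4:**
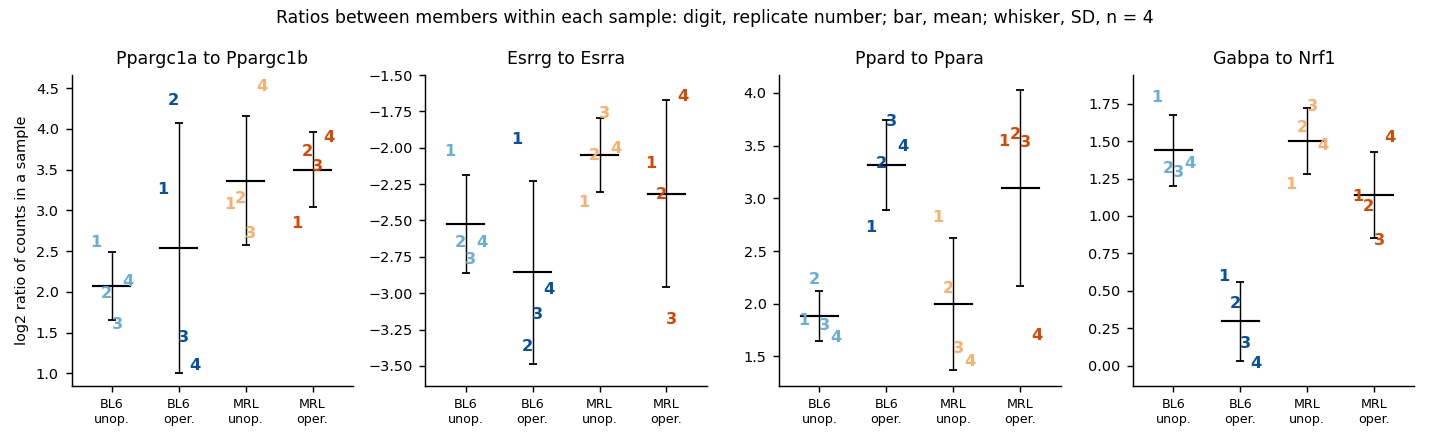
Log2 ratio of the counts of 2 regulators within each sample (y axis) in the 4 groups (x axis); digits are replicate numbers, bars means and whiskers SD (n = 4). The Gabpa to Nrf1 ratio falls from 1.44 to 0.30 in BL6, and operated MRL sample 4 stands alone at 1.702 in the Ppard to Ppara panel.

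The order of the levels of different genes was read per length, as CPM per kilobase of merged exon (CPM/kb). In unoperated BL6 Esrra was the highest of the 10, at 29.5 ± 3.11 CPM/kb, followed by Tfam at 12.5 ± 0.826, Ppargc1a at 7.82 ± 0.501 and Gabpa at 6.76 ± 0.394. These 4 were each apart from the next in every sample. Polg at 4.97 ± 0.583 CPM/kb and Ppard at 4.84 ± 0.336 overlapped each other. Esrrg at 3.64 ± 0.549, Ppargc1b at 3.13 ± 0.767 and Ppara at 2.60 ± 0.504 CPM/kb each overlapped its neighbour, and Nrf1 was the lowest at 1.385 ± 0.147. Esrra kept the first place in all 4 groups. In MRL Ppargc1a ran from 9.57 to 37.4 CPM/kb unoperated and from 4.56 to 19.6 operated, and Tfam, from 10.95 to 12.8 and from 6.78 to 9.54, lay within those ranges, so their order is not resolved there. Ppara had the lowest mean after surgery, at 0.502 ± 0.176 CPM/kb in BL6 and 0.680 ± 0.722 in MRL, where its highest sample, at 1.76, was above every Nrf1 value (1.17 to 1.27).

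Across the 16 samples, log2 CPM of the members that fell tended to go together. Pearson's r was 0.940 between Ppara and Ppard, 0.895 between Gabpa and Tfam, 0.891 between Ppard and Tfam, and 0.884 between Esrra and Tfam. Nrf1 stood apart, with 0.658 to Polg, -0.116 to Tfam, -0.334 to Gabpa and -0.512 to Esrrg. These values describe 16 samples that share their groups, libraries and scaling. Among 9626 genes of at least 5 CPM, the 2 closest to each regulator were taken by Pearson's r. For Gabpa they were Pcm1 (0.989), a protein of centriolar satellites, and Wapl (0.987), a cohesin release factor. For Tfam they were Tmem182 (0.988) and the importin Kpna1 (0.987), for Ppard Castor2 (0.986) and Wdtc1 (0.985), and for Ppargc1b the ubiquitin ligase Hectd3 (0.985) and the peroxisomal oxidase Acox3 (0.958). Ppara was close to Ubxn2a (0.977), Esrra to Ubqln4 (0.949) and Rbm38 (0.945), and Ppargc1a to the phosphatase subunit Ppp2ca (0.923) and Ciapin1 (0.918). The remaining pairs were Ccm2 (0.936) and Fkbp8 (0.799) for Nrf1, for Polg the Mediator subunit Med24 (0.913) and Bcas3 (0.901), and for Esrrg Zfx (0.896) and the sodium pump subunit Atp1b1 (0.891).

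The wider pathway was followed in 7 lists with 177 genes, of which 165 were tested. Of 27 partner receptors and co-factors of the members, 20 fell and 2 rose in BL6 (median log2 fold change -0.65), and 12 fell and 2 rose in MRL (median -0.33). The share that fell was 74.1% in BL6 and 44.4% in MRL, beside 32.8% and 22.7% of all genes. Esrrb, the remaining estrogen-related receptor, fell from 10.1 ± 0.677 to 2.85 ± 0.759 CPM in BL6 (-1.83, adjusted p = 0.000273) and from 10.2 ± 2.55 to 3.35 ± 2.13 CPM in MRL (-1.60, adjusted p = 0.00263). Lpin1, a phosphatase that also acts as a coactivator with Ppargc1a, fell by 1.54 and 1.43 on the log2 scale. Gabpb1 rose against the list: this partner subunit of Gabpa went from 8.74 ± 0.779 to 12.1 ± 1.08 CPM in BL6 (0.48), and its log2 fold change was 0.46 in MRL. Gabpb1 was thus called in the opposite direction to Gabpa in both strains, whereas Gabpb2, another partner subunit, fell by 0.24 in BL6 (adjusted p = 0.021) and was at -0.04 in MRL (adjusted p = 0.686). Kat2a, an acetyltransferase that acts on the coactivator, rose by 0.47 and 0.43. Without operated MRL sample 4 the MRL count of this list was 17 lower and 2 higher with a median of -0.53, and without operated BL6 sample 4 the BL6 count was 17 lower and 2 higher. Of all genes, 27.8% and 31.7% were lower in these fits.

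Of 37 tested genes that signal to Ppargc1a, 21 fell and 5 rose in BL6 (median -0.41), and 13 fell and 2 rose in MRL (median -0.30). The share that fell was 56.8% in BL6 and 35.1% in MRL, beside 32.8% and 22.7% of all genes. Subunits of the energy sensor AMP-activated kinase were called in both directions. Prkab2 went from 485 ± 58.4 to 108 ± 46.1 CPM in BL6 (-2.17) and fell by 1.21 on the log2 scale in MRL, and Prkaa2 fell by 1.97 in BL6 and 1.18 in MRL. Against these, Prkag2 rose by 0.69 (adjusted p = 0.0323) and Prkab1 by 0.34 (adjusted p = 0.0253) in BL6, and Prkaa1 by 0.29 (adjusted p = 0.0167) in MRL. Nos1, the neuronal nitric oxide synthase of muscle, fell by 1.77 in both strains, while Nos3, the endothelial form, rose by 1.499 in BL6 and 0.95 in MRL. Endothelial markers moved the same way, 6 of 8 of them called higher in BL6 and 7 in MRL, beside 35.1% and 22.3% of all genes. They were 5 without operated BL6 sample 4 (31.8% of all genes) and 8 without operated MRL sample 4 (24.6%). Their summed levels were 410 to 547 CPM in unoperated and 825 to 981 in operated BL6, and 301 to 422 and 398 to 971 in MRL. Operated MRL sample 4 was the 1 at 398 CPM, with the others of its group at 803 to 971. The part of these markers in the Nos3 rise was not tested. The MRL count of the 37 genes was 19 lower and 2 higher without operated MRL sample 4, beside 27.8% of all genes lower. Without operated BL6 sample 4 the BL6 count was 21 lower and 4 higher, beside 31.7% of all genes lower.

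Of 25 tested genes for replicating and transcribing mitochondrial DNA, 15 fell and 3 rose in BL6 (median -0.34), and 8 fell and 1 rose in MRL (median -0.25). This is 60.0% lower in BL6 and 32.0% in MRL, beside 32.8% and 22.7% of all genes. Rrm2b, the ribonucleotide reductase subunit that supplies nucleotides to resting cells, fell from 24.3 ± 2.03 to 7.77 ± 1.94 CPM in BL6 (-1.65) and stood at 12.1 ± 2.08 and 9.37 ± 0.854 CPM in MRL. It was the 1 gene of this list with a called interaction (1.28, adjusted p = 0.0369), and without operated MRL sample 4 no gene of the list had one. The DNA ligase Lig3 fell by 1.08 in BL6 and 0.53 in MRL. The RNA-binding partners Lrpprc and Slirp went opposite ways, Lrpprc by -1.01 and -0.59 and Slirp by 0.94 and 0.52. Without operated BL6 sample 4 the BL6 count was 10 lower and 1 higher of 25, with a median of -0.23, beside 31.7% of all genes lower. In BL6 the list thus stood nearer to all genes in that fit. Without operated MRL sample 4 the MRL count was 10 lower and 1 higher, beside 27.8% of all genes lower.

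Of 16 genes of mitochondrial fusion, fission and mitophagy, 9 fell and 1 rose in BL6 (median -0.53), and 6 fell and 1 rose in MRL (median -0.29), 56.2% and 37.5% lower beside the same 32.8% and 22.7%. Opa1 and Mfn2 fuse mitochondria: Opa1 fell by 1.55 in BL6 and 0.90 in MRL, and Mfn2 by 0.96 in BL6. Fis1, a fission factor of the outer membrane, rose by 0.82 in BL6. Leaving out operated MRL sample 4 gave 9 lower and 2 higher in MRL, and leaving out operated BL6 sample 4 gave 9 lower and 2 higher in BL6. These stand beside 27.8% and 31.7% of all genes lower in the same fits.

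The lists of target genes were followed in the same way. Of 21 tested PPAR targets in muscle, 8 fell and 2 rose in BL6 (median -0.29), 38.1% and 9.52% beside 32.8% and 35.1% of all genes. In MRL 4 fell and 4 rose (median -0.05), 19.0% each way beside 22.7% and 22.3%. Acsl1, which activates fatty acids, fell by 1.51 and 0.73, the dehydrogenase Acadm by 1.40 and 0.78, and Cpt1b, the carnitine transferase of muscle mitochondria, by 0.96 and 0.59. Angptl4, a secreted lipase inhibitor also made by adipocytes, rose by 2.79 and 2.18, together with the 7 adipocyte markers given above, whose part in this was not tested. In MRL Cd36 (0.61) and Acot2 (0.50) were also called higher. Of 32 tested targets of the estrogen-related receptors, NRF-1 and GABP, 10 rose and 10 fell in BL6 (median -0.04), 31.2% each way, and 8 rose and 7 fell in MRL (median -0.02), 25.0% and 21.9%. These shares are near those of all genes, so they are no result about these targets. The risers included the small cytochrome oxidase subunits Cox6a1 (1.88 and 1.08) and Cox6c (1.11 and 0.74), and the fallers Vdac1 (-1.23 and -0.97), with Sdha (-1.32) and Ndufs1 (-1.17) in BL6. In MRL the PPAR targets counted 5 lower and 3 higher (median -0.09), and the other targets 8 lower and 9 higher, without operated MRL sample 4. Without operated BL6 sample 4 the counts in BL6 were 7 lower and 2 higher (median -0.17), and 9 lower and 11 higher, and the median of the second list turned to 0.11. Of all genes, 27.8% were called lower and 24.6% higher in that MRL fit, and 31.7% and 31.8% in that BL6 fit.

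Of the 13 mRNAs encoded in mitochondrial DNA itself, 7 were tested. The rest were not among the genes tested, for a reason not given in the sources used here. In BL6 3 of them rose and none fell (median 0.44), 42.9% beside the 35.1% of all genes called higher. In MRL 6 rose and none fell (median 0.73), 85.7% beside 22.3%. The respiratory chain subunits mt-Cytb and mt-Nd4 rose by 0.68 and 0.63 in BL6 and by 0.77 and 0.80 in MRL. All 7 were called higher in MRL without operated MRL sample 4, beside 24.6% of all genes. Without operated BL6 sample 4 the BL6 count was 4, beside 31.8% of all genes.

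**Figure D5:**
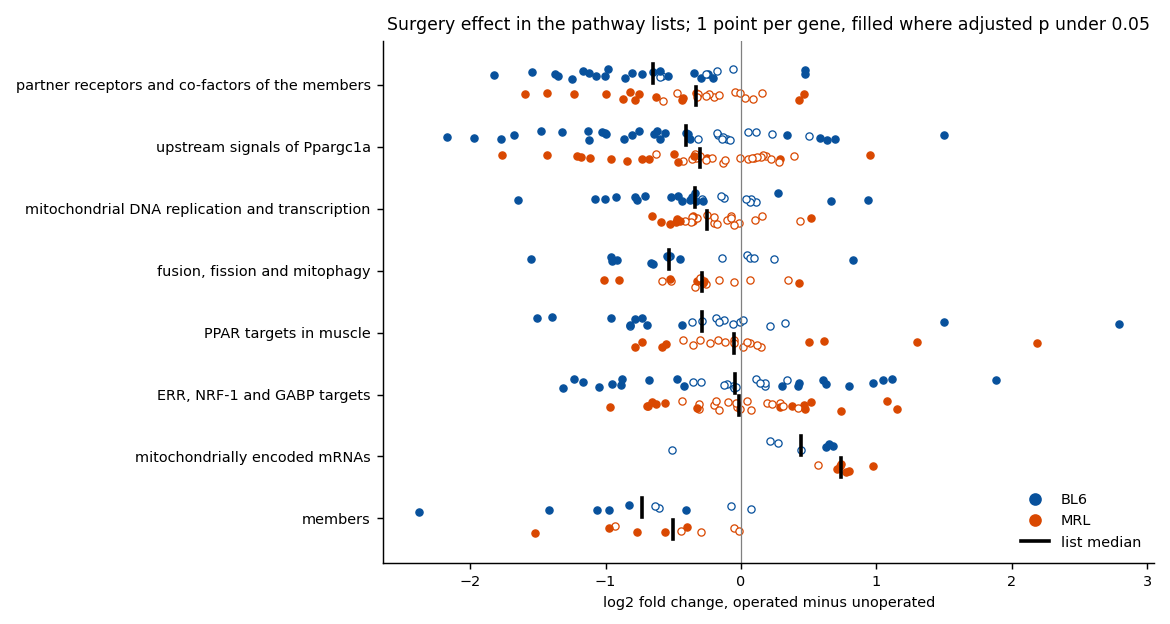
Log2 fold change after surgery (x axis) of every tested gene of the 7 pathway lists and of the 10 regulators (rows) in BL6 and MRL; 1 point is 1 gene, filled where the adjusted p was under 0.05, and black bars are medians. The regulators and their partners and upstream signals lie mostly left of 0, the targets on both sides, and the mitochondrially encoded mRNAs right of 0.

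The authors' deposited table of group comparisons gives a false discovery rate for the same 10 genes. In the authors' deposited table, 6 regulators were lower after surgery in BL6 at a false discovery rate under 0.05, where 64.9% of all genes passed in either direction. In MRL 7 were lower in the authors' deposited table, where 56.4% of all genes passed. Those 7 include Ppargc1a, with a log2 fold change of -1.275 and a false discovery rate of 0.0388 in the authors' deposited table, and Esrra, with a false discovery rate of 0.015, neither of which was called in MRL in the fit used here. For the strains, the authors' deposited table called 0 regulators among unoperated and 1 among operated samples, Gabpa, at 0.55 with a false discovery rate of 0.0169.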

How the data were processed

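Minced muscle gave total RNA through a DNase-treated column preparation, and the libraries were of a standard Illumina type, per the labels' protocols. The submitters' processing notes name FastQC, STAR, edgeR and the build mm10, without versions or roles. The counting program, annotation and strand setting are not given in the sources used here. The authors deposited unnormalized whole-number counts, a reading of the values. The second deposited table holds the authors' edgeR comparisons of 4 pairs of groups: log2 fold changes, mean log2 CPM, p-values and false discovery rates, per the file headers. The lowest mean in the count table was 1.05 CPM, so genes of very low expression are absent from it.

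Counts were analysed in R 4.3.3 with edgeR 4.0.16: TMM factors, filterByExpr at a minimum count of 10 (1 gene removed), 1 mean per group over all 16 samples, and glmQLFTest with Benjamini-Hochberg adjustment over 11709 genes. This gave 5 comparisons: surgery in each strain, their difference, and the strains among unoperated and among operated samples. CPM values use TMM-scaled library sizes, and correlations used log2 CPM with a prior count of 2. Means and SDs are over 4 samples. The SE of a log2 fold change was derived from the test, as its size divided by the square root of the quasi-likelihood F statistic. Coordinates and exon lengths are from GENCODE M21 (GRCm38, the same assembly as mm10), where 11708 of 11710 gene IDs were found. Alternatives were DESeq2 1.42.0, limma 3.58.1, other scalings, no filter, a replicate block, fits to the compared groups alone and leaving out samples. Leaving out MRL samples in pairs, and the list counts without a named sample, were chosen after seeing the data.

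All 10 regulators are named in every comparison. Each pathway list contributes its called genes with the largest rise and fall, at most 3 each way and with a mean of 5 CPM or more, and a selection of these is printed; some genes that these rules select are not reported here. Gabpb2, Prkab1 and, in MRL, Prkaa2 are named outside this rule, chosen after their values were seen. The members and lists were chosen with earlier results of these data known. Replicate numbers shared by the groups were not used to pair samples, because the labels do not say that a number marks a shared animal or batch. Replicates differed from each other by more than sampling noise, and each of the 16 was counted.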

Additional observations from a re-analysis of the deposited data

Results flagged for a closer look

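In 56 sets of 4 samples (the 10 regulators and the 4 ratios in each group), the gap between an extreme sample and its nearest neighbour exceeded Dixon's limit in 7, where chance gives about 1 in 20. Esrrg was flagged for sample 1 in both BL6 groups, at 27.64 CPM unoperated (the nearest other sample was at 21.3) and 25.95 CPM operated (nearest 11.45). Ppara was flagged for operated MRL sample 4, at 6.765 CPM with the nearest at 1.249. Nrf1 was flagged for unoperated BL6 sample 1, the lowest at 11.99 CPM with the nearest at 14.88. The log2 ratio of Esrrg to Esrra was flagged for unoperated BL6 sample 1, at -2.025 (nearest -2.652), and so was that of Gabpa to Nrf1, at 1.794 (nearest 1.353). The log2 ratio of Ppard to Ppara was flagged for operated MRL sample 4, at 1.702 with the nearest at 3.532. The ratios are built from the same counts as the genes, so these flags are not independent of each other.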

How the results depend on the processing

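Of 970 alternative values for the 10 regulators in 5 comparisons, 901 kept direction and side of the threshold, 17 lost the call, 12 gained one and 40 turned sign. These values come from overlapping sets of the same samples, and many belong to results that were not called. Only 18 of the 50 results, and 8 of the 20 surgery effects, stayed the same in every alternative. The regulators called after surgery in MRL were 5, and 3 in a fit to those groups alone. Without unoperated MRL sample 1 and operated MRL sample 4 (an alternative chosen after seeing the data) they were 8. In that fit 54.7% of all genes were called in either direction, and 28% of all genes were called lower. With 1 sample left out the regulators called were 2 to 8, while all genes called ranged from 3490 to 6145. Regulators called between unoperated strains were 0, and 2 in the fit to those groups alone (2438 genes) and 0 to 1 with 1 sample left out (1, Polg, without unoperated BL6 sample 1). Between operated strains they were 1, and 0 in the fit to those groups alone (575 genes). They were 2 without both MRL samples just named (11.3% of all genes), and 1 to 2 with 1 left out (2, with Esrrg, without operated BL6 sample 1). Genes called for the interaction were 29, and 14 with total counts, 250 with DESeq2, 2 with the replicate block, 4 without both MRL samples numbered 4 and 1 to 69 with 1 left out.

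With total counts the sign turned for Polg after surgery, 0.066 in BL6 and 0.045 in MRL, Nrf1 in MRL, 0.0038, the Polg interaction, -0.021, and between unoperated strains Esrra 0.11, Gabpa 0.10, Nrf1 0.031 and Tfam 0.065. With voom the Ppargc1a interaction was 0.036. Without unoperated MRL sample 1 and operated MRL sample 4 the interactions were -0.053 for Ppargc1b, -0.020 for Esrra, -0.31 for Esrrg, -0.51 for Ppara, -0.066 for Ppard and -0.00973 for Polg, unoperated strains differed by 0.012 for Esrra and 0.051 for Gabpa, and operated strains by -0.22 for Ppargc1b, -0.0071 for Esrra and -0.65 for Ppara. Without both MRL samples numbered 4 the interactions were -0.097 for Esrrg and -0.055 for Ppara, and operated strains differed by -0.22, -0.0071 and -0.65 for the same genes. With 1 sample left out, values ran from -0.0034 to 0.12 for Nrf1 in BL6 and -0.052 to 0.020 for Polg in MRL. Interactions ran from -0.94 to 0.28 for Ppargc1a, -0.17 to 0.63 for Esrrg and -0.25 to 1.10 for Ppara. Unoperated strains ran from -0.11 to 0.026 for Esrra and -0.098 to 0.051 for Gabpa, and operated strains from -0.22 to 0.39 for Ppargc1b, -0.027 to 0.16 for Esrra and -0.65 to 0.71 for Ppara. The cause of these turns was not tested.

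The replicate block changed no regulator's call. Correlations of same-numbered samples ran from -0.474 to 0.452, in both directions. With 4 samples per group these values cannot decide whether a number marks a shared animal or batch. Ppara had as few as 29 counts in a sample, which limits its precision.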

Other observations

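Within the pathway lists, strain differences reached few genes. The clock repressor Nr1d1 was lower in unoperated MRL by 1.19 on the log2 scale, and Prkag3, a muscle subunit of AMP-activated kinase, by 0.88. Among operated samples Flcn, a regulator of nutrient signalling, was lower in MRL by 1.21, and the coactivator Ncoa2 higher by 0.64. Of the 27 partner genes, 1 was higher and 1 lower in MRL in each condition. Of the 37 upstream genes, 0 were higher and 1 lower in unoperated and 1 higher and 2 lower in operated MRL. Over all genes, 10.4% and 12.9% were called in these comparisons.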
